A study of Mus musculus with 6 samples.

Results

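The comparison sets hepatocellular carcinoma (HCC) of STAM mice against the non-tumour (NT) liver of STAM mice, with 3 HCC samples labelled 1, 2-1 and 2-2 and 2 NT samples labelled 1 and 2. These are 5 of the 6 arrays of the series; the remaining array is a normal liver from a control mouse. Per the labels, STAM mice on a C57BL6 background were injected with streptozotocin (STZ, a toxin of the insulin-producing beta cells) and fed a high-fat diet, a model in which fatty liver inflammation (NASH) leads to HCC at 18 weeks of age. Both groups therefore carry the same treatment, and NT is diseased liver, not healthy tissue. The sex, the age of the animals at sampling, the number of animals, and whether HCC 2-1 and 2-2 came from separate animals are not stated in the labels, so each p-value covers only how far these arrays differ among themselves, which can be technical.

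A microRNA (miRNA) is a short RNA loaded into an Argonaute protein, which it guides to messenger RNAs mainly by pairing through its seed, bases 2 to 8; targets paired in this way are usually repressed. miRNAs with 1 shared seed form a family with overlapping targets, and neighbours in the genome are often cut from 1 primary transcript. In the liver, miR-122 is the defining hepatocyte miRNA, while miR-143 and miR-145 mark smooth muscle and other contractile cells, and miR-199 marks stellate cells, the collagen-producing cells of the liver. In liver cancer of people and mice, members of the let-7, miR-26, miR-195 and miR-199 groups are known for lower levels and the miR-17 family and miR-221 for higher levels.

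The measured unit was the fluorescence of 1 spot per mature miRNA, given here as signal above the mean of the empty (blank) spots of that array and scaled so that all 5 arrays share 1 median. Of 1095 usable mouse miRNA spots, 463 (42.3%) lay above the detection level, the blank mean plus 2 standard deviations, on 2 or more of the 5 arrays, and 273 on all 5. These 463 miRNAs were compared, and the other 632 have no comparison. Across the threshold, the 97 miRNAs above it on exactly 2 arrays had a median signal of 4.82 on their brightest array, and the 165 above it on exactly 1 array had 3.82. The number of miRNAs above the level ran from 349 to 490 per array, with 352 and 490 on NT 1 and NT 2 and 407, 349 and 446 on HCC 1, 2-1 and 2-2. Array hardware moved in part with the groups: the scanner gain was 38 on both NT arrays and 41, 39 and 39 on the HCC arrays, and of the 3 chips used, 1 held HCC 1 with NT 2, another HCC 2-1 with HCC 2-2, and the third NT 1 with the normal liver. Gain and tissue cannot be told apart, also within the shared chip, where the gain was 41 on HCC 1 and 38 on NT 2. The value within that chip, HCC 1 against NT 2, is given beside the main results because it leaves out differences between chips.

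The sequences below are the RefSeq mature forms (build GRCm38.p6) of the miRNAs on which the results turn, with the seed in capitals. The first set was lower in HCC, and its members stand among the smallest p-values or are seed partners or genome neighbours of those that do, apart from miR-31, shown for its signal ratio.
let-7c: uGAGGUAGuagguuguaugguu
let-7b: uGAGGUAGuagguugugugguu
miR-26a: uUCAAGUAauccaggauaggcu
miR-26b: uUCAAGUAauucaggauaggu
miR-195: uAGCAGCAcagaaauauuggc
miR-497: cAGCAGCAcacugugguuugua
miR-199a-3p: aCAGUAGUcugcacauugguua
miR-142-5p: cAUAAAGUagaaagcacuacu
miR-21: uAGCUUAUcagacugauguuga
miR-31: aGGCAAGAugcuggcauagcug

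The second set was higher in HCC, with the smallest p-values in that direction. An asterisk in the array's names marks the other arm of the same hairpin.
miR-711: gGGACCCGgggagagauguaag
miR-149*: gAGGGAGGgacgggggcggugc
miR-1247*: cGGGAACGucgagacuggagc
miR-128-2*: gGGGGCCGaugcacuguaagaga
miR-3067*: cCAAGCGGcugcccugggagagg
miR-365-1*: aGGGACUUuugggggcagaugug
miR-221: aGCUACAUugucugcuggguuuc
miR-3473c: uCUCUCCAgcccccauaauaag

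The third set belongs to families or clusters described below: miR-15b and miR-16 share the seed of miR-195, the next 3 share the seed of miR-17, and miR-96 and miR-182 are neighbours that stood apart in 1 tumour.
miR-15b: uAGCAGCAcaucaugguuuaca
miR-16: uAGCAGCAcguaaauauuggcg
miR-17: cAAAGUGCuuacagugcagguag
miR-20b: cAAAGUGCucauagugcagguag
miR-106a: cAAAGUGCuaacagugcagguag
miR-96: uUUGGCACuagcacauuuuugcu
miR-182: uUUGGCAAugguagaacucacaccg

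The 463 miRNAs divided evenly, 231 with a lower and 232 with a higher mean in HCC, with a median difference of 0.00 on the log2 scale. In the limma test with Benjamini-Hochberg adjustment, 0 of 463 (0%) passed an adjusted p of 0.05, and the smallest adjusted p was 0.0616, for miR-145. At an unadjusted p under 0.05, 28 were lower (6.05%) and 19 higher (4.1%), 47 in all where 23.15 would be expected if no miRNA differed. That split depended on the scaling: with median scaling in place of quantile normalisation it was 13 lower and 34 higher, and with blank-subtracted, scaled signals 16 lower and 25 higher. All 3 HCC arrays lay below both NT arrays for 63 miRNAs (13.6%) and above both for 52 (11.2%), on the normalised log2 scale. These shares are the background against which the lists below are read. Leaving out NT 1 gave 18 lower and 10 higher at that unadjusted p, and leaving out HCC 2-1 gave 15 lower and 16 higher. The differences named below are on the log2 scale of the quantile-normalised values, ± standard error (n = 3 HCC and 2 NT), and a ratio is that of the mean scaled signals. An offset of 50 added before the logarithm shrinks differences of dim miRNAs, so the ratio is often the larger of the 2 measures.

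**Figure D1:**
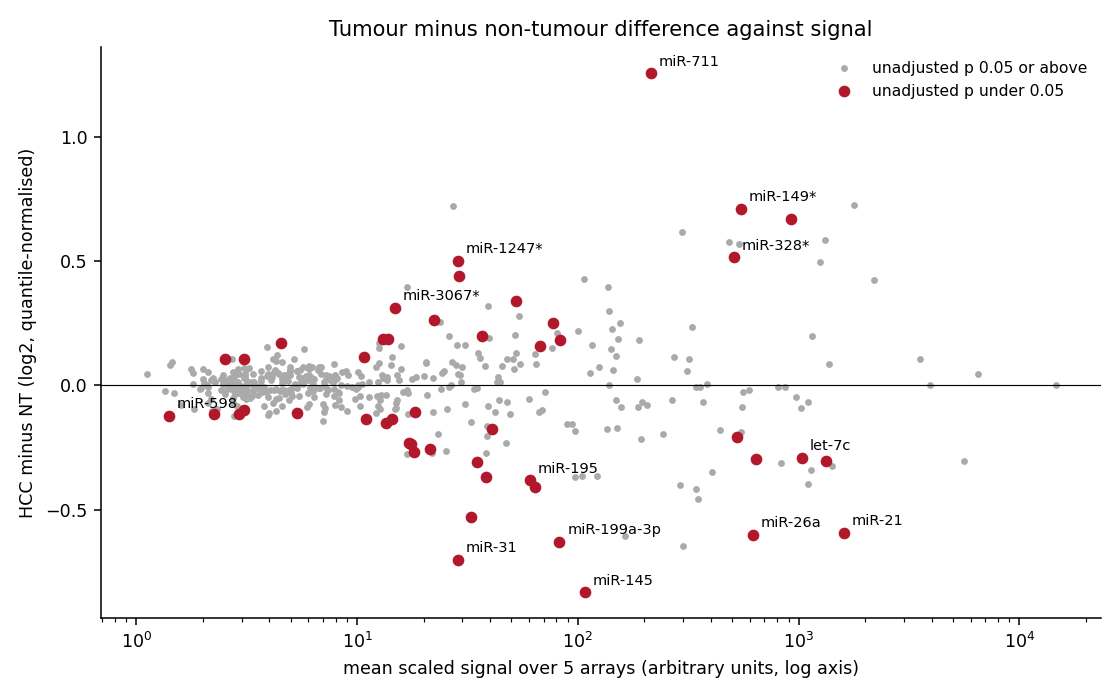
Difference between HCC and NT (vertical axis, log2 of quantile-normalised signal) against the mean scaled signal over 5 arrays (horizontal, log axis), 1 point per miRNA with a mean above 0. Red points have an unadjusted p under 0.05; miR-711 stands highest at 1.26 and miR-145 lowest at -0.83, and dim miRNAs crowd around 0.

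The lower miRNAs with the smallest p-values included markers of mesenchymal cells. As they were named for a small p, their separation and close replicates follow largely from that choice. miR-145, a driver of the contractile smooth muscle state, gave a scaled signal of 164 and 167 on NT 1 and NT 2, and of 74.1, 71.7 and 59.5 on HCC 1, 2-1 and 2-2. The HCC arrays held 0.413 times the NT mean without overlap. Its difference was -0.83 ± 0.0694 (adjusted p = 0.0616, limma), and -0.78 within the shared chip. The probe for miR-199a-3p and miR-199b, whose mature forms it cannot separate, gave 121 and 123 in NT against 52.1, 54.0 and 62.5 in HCC. This was 0.461 times the NT mean without overlap, a difference of -0.63 ± 0.0799 (adjusted p = 0.0951), and -0.75 within the shared chip. miR-199a is encoded at chr1:162217883-162217904 (plus strand), within the spans of Dnm3 and the non-coding Dnm3os, and at chr9:21496498-21496519 (minus strand), within Dnm2; the table used gives gene spans, not exons. miR-199b*, the other arm of the miR-199b hairpin, gave 25.4 and 34.1 in NT and 15.6, 16.5 and 15.3 in HCC (adjusted p = 0.370).

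Across all 8 tested mesenchymal markers of 9 on the array, 6 were lower and 2 higher in HCC, with a median difference of -0.18 against 0.00 for all miRNAs. Of these 8, 4 had HCC arrays wholly below NT (background 13.6%) and 2 an unadjusted p under 0.05 (background 6.05%). Those 2 were miR-145 and miR-199a-3p, already named for their p, and the list was chosen with earlier results of these data known. The summed signal of the 8 was 507 and 553 on the NT arrays and 305, 286 and 277 on the HCC arrays. miR-143, the neighbour of miR-145 in its cluster, gave 104 and 147 in NT and 83.7, 80.1 and 72.0 in HCC, again without overlap (-0.37 ± 0.141, adjusted p = 0.478). miR-152, by contrast, overlapped between the groups at 54.7 and 35.1 against 34.8, 30.0 and 41.8. Of the remaining markers, miR-199a-5p differed by -0.27, miR-214 by -0.04, miR-218 by 0.02 and miR-503 by 0.03. miR-214 lies 5555 bases from the chromosome 1 copy of miR-199a-3p. In bulk tissue, fewer cells of a type and less of its RNA per cell cannot be told apart.

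miR-195, a repressor of cyclins and cyclin-dependent kinases and also named for its small p, gave 84.0 and 84.4 in NT against 44.4, 45.7 and 45.5 in HCC. The ratio was 0.537 and the difference -0.38 ± 0.0446 (adjusted p = 0.0890); within the shared chip it was -0.45. Its neighbour miR-497, singled out after its values were seen, lies 332 bases upstream on the plus strand of chromosome 11 (chr11:70234730-70234751, with miR-195 at chr11:70235062-70235082). It gave 40.8 and 54.2 in NT and 20.4, 30.0 and 29.3 in HCC, also without overlap (-0.31 ± 0.108, adjusted p = 0.475). Both carry the AGCAGCA seed, yet other carriers of that seed did not share the pattern. miR-15b, encoded at chr3:69009775-69009796 within the span of Smc4 (a condensin subunit), gave 67.1 and 88.4 in NT against 173, 146 and 58.0 in HCC. Its difference was 0.43 ± 0.294 (adjusted p = 0.700). HCC 2-2 lay below both NT arrays on the scaled signal and between them on the normalised scale. miR-16, whose 2 gene copies lie 143 bases from miR-15b and 139 bases from miR-15a, gave 698 and 551 in NT and 453, 624 and 425 in HCC. Of the 6 members of the AGCAGCA family, 4 were lower and 2 higher (median -0.12), but 2 lower and 4 higher with median scaling (median 0.10). Leaving out HCC 2-1 moved that median to -0.23, and leaving out NT 1 moved it to -0.07 with 3 lower and 3 higher. miR-15a, at -0.06 ± 0.113, and miR-322, at 0.15 ± 0.263, lay near 0.

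The let-7 family, repressors of growth genes such as Ras, Myc and the fetal RNA-binding protein Lin28, was lower in 8 of 9 members with a median of -0.29, but with median scaling 2 were lower and 7 higher with a median of 0.04. With cyclic loess the count was again 8 of 9, at a median of -0.14. let-7c gave 1380 and 1108 in NT and 805, 1012 and 859 in HCC, a ratio of 0.717 with no overlap and a difference of -0.29 ± 0.0335 (adjusted p = 0.0890; -0.27 within the shared chip). let-7b, encoded 709 bases from the let-7c-2 copy within the non-coding RNA Lncppara on chromosome 15 (chr15:85707325-85707346), gave 797 and 683.5 against 542, 646 and 542. It differed by -0.30 ± 0.0674 (adjusted p = 0.343). let-7a gave 1642 and 1384 in NT and 1052, 1367 and 1188 in HCC, and let-7d 1315 and 1032 against 845, 991 and 930, each without overlap on the scaled signal. let-7f overlapped on the scaled signal, with HCC 2-1 at 1428 above NT 2 at 1387. On the normalised scale, HCC lay wholly below NT for 6 of 9 members, against the 13.6% background. An unadjusted p was under 0.05 for 3 of 9, against a background of 6.05%. Members of a seed family have similar sequences, and whether 1 probe also reads another member's RNA was not tested. Counts over any such family therefore cannot be taken as counts of independent miRNAs.

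miR-26a and miR-26b, which repress the histone methyltransferase Ezh2, share the UCAAGUA seed, and each of their genes lies within a gene for a small C-terminal domain phosphatase. miR-26a, from chr9:119031811-119031832 in Ctdspl and chr10:126995543-126995564 in Ctdsp2, gave 965 and 696 in NT and 383, 576 and 497 in HCC. This was 0.585 times NT (-0.60 ± 0.123, adjusted p = 0.280; -0.76 within the shared chip). miR-26b, from chr1:74394324-74394344 in Ctdsp1, gave 514 and 348 against 194.9, 374 and 327, with HCC 2-1 above NT 2. Its difference was -0.46 ± 0.238 (adjusted p = 0.580). miR-101a, another repressor of Ezh2, gave 31.6 and 16.9 in NT and 12.8, 11.3 and 15.3 in HCC, and miR-101b 217 and 108 against 108, 142 and 103. All 4 members of the miR-26 and miR-101 list were lower, with a median of -0.35 (-0.15 with median scaling). For 3 of 4 the arrays did not overlap on the normalised scale, against the 13.6% background over all miRNAs.

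The miR-30 family, enriched in epithelial cells and in liver, was lower in 5 of 5 members with a median of -0.21, which turned to 0.04 with median scaling. miR-30d gave 496 and 355 in NT and 242, 258 and 354 in HCC, where HCC 2-2 all but met NT 2 (-0.42 ± 0.169, adjusted p = 0.482). miR-30b gave 427 and 293 against 186, 273 and 278 (-0.40 ± 0.165), while the scaled signals of miR-30c and miR-30a overlapped between the groups. miR-30c, at -0.21 ± 0.0743, did not overlap on the normalised scale, and miR-30a, at -0.18 ± 0.197, did. The miR-29 family, repressors of collagen genes, was split: miR-29a was lower at -0.40 ± 0.194, miR-29b was near 0 at -0.05 ± 0.126, and miR-29c was higher at 0.23 ± 0.246. Its median of -0.05 turned to 0.19 with median scaling, and none of the 3 separated the groups.

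**Figure D2:**
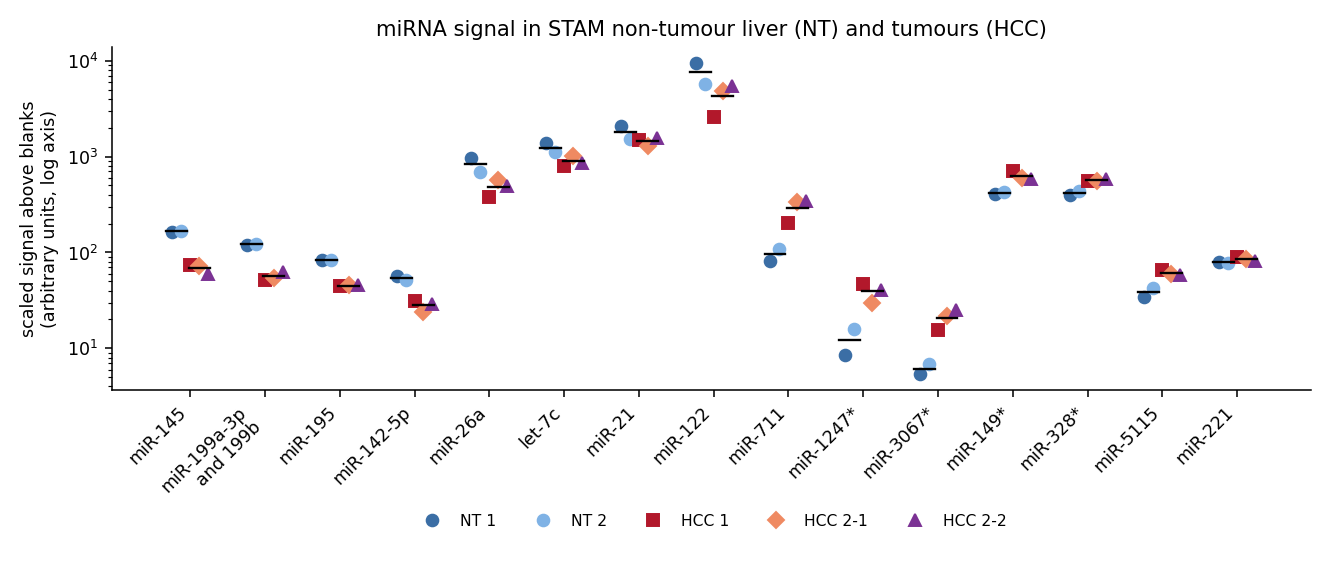
Scaled signal above blanks (vertical, log axis) of 15 miRNAs on each of 5 arrays, with blue circles for NT, other colours for HCC and black bars for group means. miR-145, miR-199a-3p, miR-195 and miR-142-5p show HCC arrays at 0.413 to 0.537 times the NT mean, and miR-711, miR-1247* and miR-3067* at 3.06 to 3.39 times.

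Among hepatocyte miRNAs, miR-122 was lower on average but spread widely. It gave 9489 and 5673 on NT 1 and NT 2 and 2596, 4821 and 5414 on HCC 1, 2-1 and 2-2. All 3 HCC arrays lay below NT, by a ratio of 0.564, but HCC 2-2 came close to NT 2, and the difference of -0.30 ± 0.345 had an adjusted p of 0.815. Quantile normalisation gives the top-ranked spots of every array like values, so the largest signals are compressed in it. miR-192 gave 1465 and 960 against 927, 1172 and 993, and miR-194, a neighbour of miR-192 in 1 of its 2 copies, gave 1201 and 715 against 630, 854 and 756. Both overlapped, with NT 1 highest. miR-22, a regulator of metabolic genes, stood at 0.00 ± 0.159 with NT 1 highest at 1110. Of 16 tested liver-enriched miRNAs, 15 were lower and 1, miR-378, higher, with a median of -0.18. Median scaling gave a median of -0.03, and leaving out NT 1, HCC 1 or HCC 2-1 gave -0.06, -0.11 and -0.12. HCC arrays lay wholly below NT for 4 of the 16, against the 13.6% background over all miRNAs. miR-378, which lies in a gene for a mitochondrial biogenesis coactivator and acts on metabolism, gave 146 and 79.4 in NT and 216, 93.6 and 150 in HCC (0.40 ± 0.324, adjusted p = 0.757).

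Every tested marker of blood and vessel cells had a lower mean in HCC in the main fit. The differences of miR-451, miR-144 and miR-155 changed sign under other settings, given at the end. miR-142-5p, expressed across leukocytes, gave 56.3 and 51.2 in NT and 31.0, 23.8 and 29.3 in HCC, a ratio of 0.522 without overlap (-0.37 ± 0.0602, adjusted p = 0.207). miR-142-3p, the other arm of that hairpin (chr11:87756903-87756925), overlapped on the scaled signal at 22.3 and 14.9 against 16.6, 5.01 and 11.6. miR-223, of neutrophils and macrophages, gave 106 and 159 against 95.2, 72.8 and 86.8, with all HCC arrays below NT (-0.36 ± 0.177, adjusted p = 0.568). miR-146a, induced by inflammatory signalling, gave 57.8 and 43.1 against 38.7, 33.2 and 31.5 (-0.18 ± 0.0516, adjusted p = 0.452). miR-342-3p overlapped, at 25.4 and 32.04 against 29.1, 24.8 and 16.02, and miR-155, of activated lymphocytes and macrophages, was at or near the detection level on all 5 arrays. All 8 leukocyte markers were lower, with a median of -0.13, and 4 of them had HCC arrays wholly below NT (background 13.6%). Their summed signal was 293 and 334 in NT and 232, 189 and 192 in HCC. The part of leukocyte number in the other results was not tested.

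Endothelial miR-126-3p gave 1459 and 1165 in NT and 680, 1116 and 1249 in HCC, where HCC 2-2 lay above NT 2. Its other arm, miR-126-5p, gave 181 and 127 against 76.1, 111 and 113, with HCC below NT (-0.36 ± 0.162, adjusted p = 0.552). Erythroid miR-451, a guide to residual blood in the tissue, gave 626 and 529 against 567, 464 and 579, and the groups overlapped. The erythroid list had a median of -0.02, with miR-144 and the shared probe of miR-486 and miR-3107 both at -0.02. Markers of muscle, nerve and pancreas were at background, with 1 of 13 above the detection level on 2 or more arrays.

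The 10 tested markers of biliary and other epithelium had a median difference of -0.09, with single members spreading widely between arrays. miR-31 gave 76.3 and 34.1 in NT and 5.10, 1.88 and 25.6 in HCC, a ratio of 0.197; HCC 2-1 was below the detection level of its array and HCC 2-2 lay near NT 2. The difference was -0.70 ± 0.214 (adjusted p = 0.452). miR-200b, which represses the mesenchymal regulators Zeb1 and Zeb2, gave 19.2 and 33.0 in NT and 12.8, 13.3 and 12.3 in HCC. Its neighbour miR-200a, 774 bases away on the minus strand of chromosome 4, gave 20.8 and 30.0 against 12.8, 5.01 and 15.3. Both were without overlap, at -0.27 ± 0.0928 (adjusted p = 0.475) and -0.28 ± 0.104 (adjusted p = 0.478). Of the 10 epithelial markers, 6 were lower and 4 higher, the 4 being miR-96, miR-182, miR-183 and miR-200c.

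**Figure D3:**
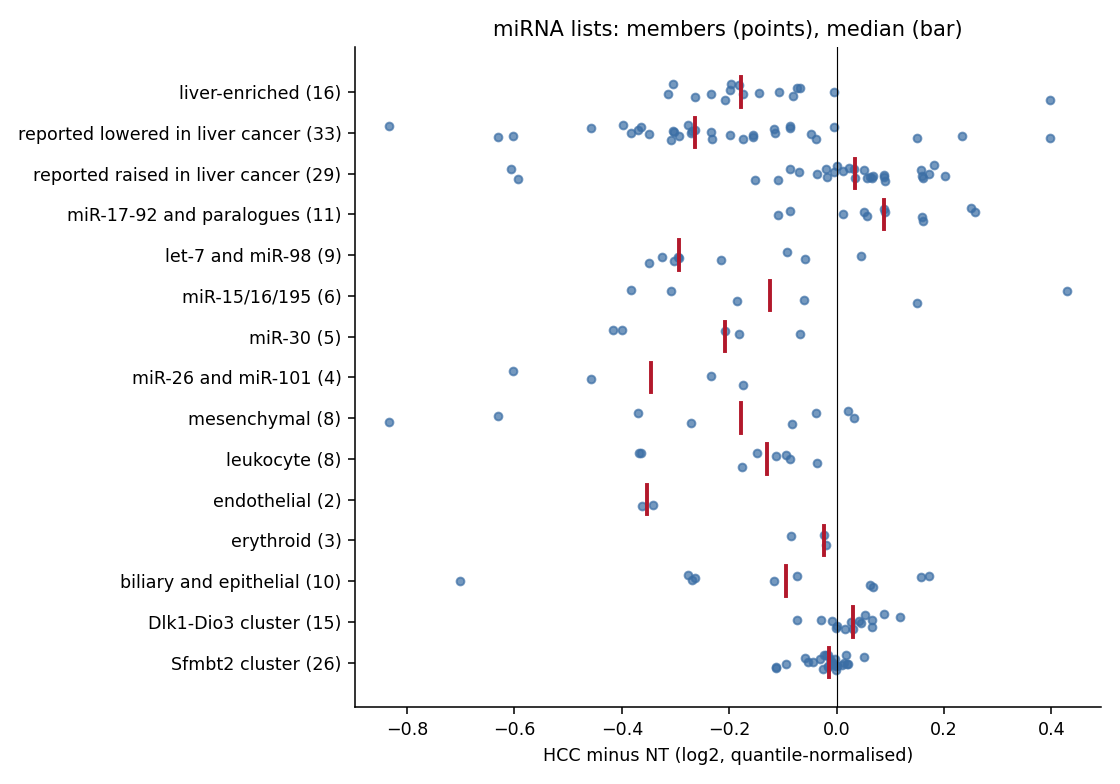
HCC minus NT difference (horizontal, log2) of each tested member of 15 miRNA lists, 1 row per list with the number tested; points are members and the red bar is the list median. The liver-cancer-lowered, let-7, miR-26 and miR-101 and endothelial lists have medians of -0.26 to -0.35, and the erythroid and Sfmbt2 lists lie at -0.02 and -0.01.

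miR-711 had the largest difference of the 463 miRNAs. It gave 82.5 and 110 in NT and 204, 339 and 340 in HCC, a ratio of 3.06 with no overlap, and the difference was 1.26 ± 0.211 (adjusted p = 0.207). Within the shared chip it was 0.78. miR-711 is encoded at chr9:108969970-108969991 (plus strand), within the span of Col7a1, the collagen gene of anchoring fibrils. miR-1247*, at chr12:110278058-110278078 on the minus strand and within no other gene of the table, gave 8.43 and 15.9 in NT against 47.3, 30.0 and 41.1 in HCC. The ratio was 3.24 and the difference 0.50 ± 0.107 (adjusted p = 0.288; 0.50 within the shared chip). miR-3067*, within Smoc1 at chr12:81166201-81166223, gave 5.35 and 6.87 against 15.7, 21.7 and 24.9, a ratio of 3.39 from a level near the detection limit in NT (0.31 ± 0.0796, adjusted p = 0.400). miR-365-1*, at chr16:13453855-13453877, gave 17.7 and 8.89 against 30.0, 27.9 and 27.1, a ratio of 2.13.

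miR-149*, from chr1:92850421-92850442 within the glypican gene Gpc1, gave 407 and 429 in NT and 702, 604 and 591 in HCC (ratio 1.51, 0.71 ± 0.146, adjusted p = 0.280). The opposite arm, miR-149, was dim and overlapped between the groups, at 14.6 and 5.87 against 18.5, 5.01 and 7.91. miR-328* gave 402 and 440 against 555, 559 and 585 (ratio 1.35, 0.52 ± 0.135, adjusted p = 0.400). miR-128-2*, within the neuronal gene Arpp21 at chr9:112118679-112118701, gave 28.5 and 31.0 against 41.5, 42.5 and 40.4 (0.20 ± 0.0373, adjusted p = 0.261). miR-5115 gave 34.7 and 43.1 against 65.5, 60.3 and 58.8 (0.34 ± 0.0650, adjusted p = 0.261), and miR-3473c, within Traf5, 9.97 and 5.87 against 12.8, 12.3 and 13.1. Apart from miR-149, the miRNAs of this paragraph did not overlap on the scaled signal. They were named for a small p, so their separation follows largely from that choice. On the normalised scale, 52 of all 463 miRNAs (11.2%) were separated in this direction. The 10 miRNAs named for their p in this direction were rich in G and C where a sequence was matched: the 8 matched had 47.8% to 81.8% (median 62.3%), while the middle of 1679 mouse mature miRNAs in the table ran from 45.5% to 60% (median 52.2%). Of the 10 lower miRNAs only 7 were matched, 70.0%, which is too few for a check of that set; those 7 had 33.3% to 45.5% (median 40.9%). The part of base composition in these differences was not tested.

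miR-221, a repressor of the cell-cycle inhibitor p27, gave 79.4 and 78.4 in NT against 90.4, 86.3 and 81.6 in HCC, higher on every tumour array but by a ratio of only 1.09 (0.18 ± 0.0495, adjusted p = 0.400). Its neighbour and seed partner miR-222 was dim, at 9.97 and 12.9 against 14.7, 17.5 and 13.1. miR-21, a widely raised miRNA in cancer, was not higher than in NT: it gave 2102 and 1541 in NT and 1494, 1294 and 1576 in HCC. The scaled signals overlapped at a ratio of 0.798, the normalised difference was -0.59 ± 0.146 (adjusted p = 0.399), and median scaling gave 0.07. miR-34a, induced by p53, gave 300 and 160 against 181, 69.6 and 103 (-0.61 ± 0.340, adjusted p = 0.621), overlapping through HCC 1. miR-34b-3p was near the detection level throughout.

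The members of the miR-17 seed family repress p21 and come from the miR-17-92 cluster and its paralogues. Of these, 6 of 6 were higher with a median of 0.16, where 232 of all 463 miRNAs were higher. Their sequences differ by few bases, so the 6 cannot be taken as independent. miR-20b gave 67.1 and 69.3 in NT and 66.5, 92.6 and 91.2 in HCC (0.26 ± 0.126, adjusted p = 0.568), and miR-106a 65.5 and 73.3 against 72.2, 86.3 and 89.0. miR-17 gave 99.45 and 117 against 85.6, 133 and 142 (0.16 ± 0.165), and miR-20a 94.8 and 127 against 77.0, 122 and 145 (0.05 ± 0.227). HCC 1 was lowest of the tumours for each of these 4. Median scaling, cyclic loess and blank-subtracted signals kept 6 of 6 higher, but the fit with chip as a block, which rests on HCC 1 against NT 2, gave 3 higher and 3 lower, and leaving out NT 1 or HCC 2-2 gave 5 of 6. The 11 tested members of the clusters add the miR-18, miR-19 and miR-25 and miR-92 seeds. Of these 11, 9 were higher and 2 lower (median 0.09), and 3 had HCC arrays wholly above NT (background 11.2%). One of the lower members, miR-19b, gave 210.5 and 198 against 140, 172 and 219.

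**Figure D4:**
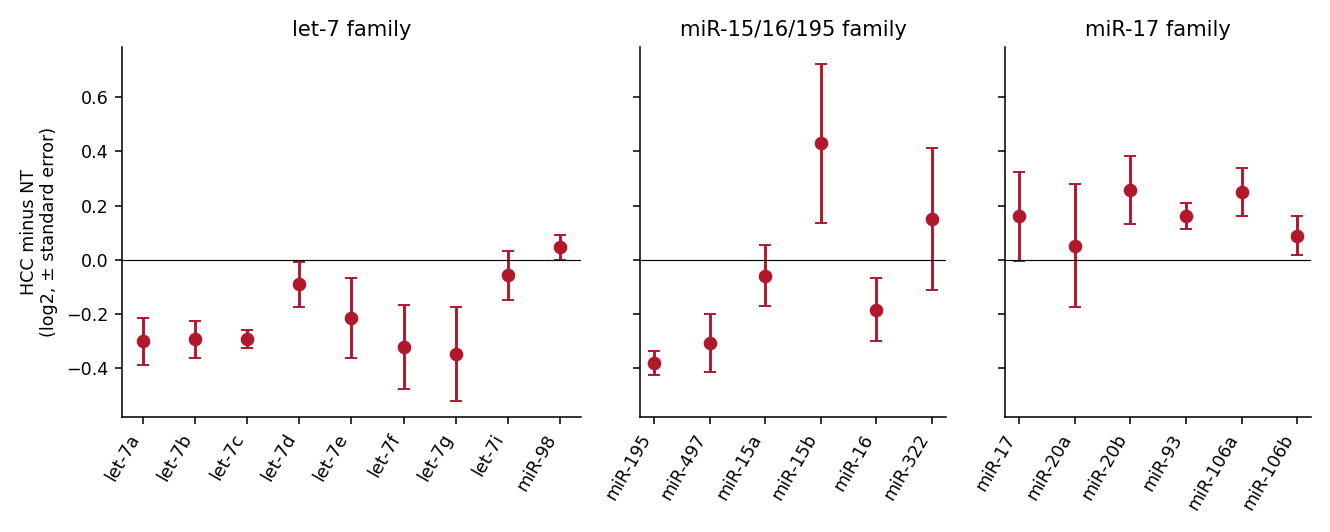
HCC minus NT difference (vertical, log2) of each member of 3 seed families; points are estimates and bars standard errors (n = 3 HCC and 2 NT). The let-7 family lies below 0 except miR-98, the family of miR-15, miR-16 and miR-195 spans -0.38 to 0.43, and the 6 members of the miR-17 family lie above 0, from 0.05 to 0.26.

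Read as lists, 30 of 33 tested miRNAs widely reported as lowered in liver cancer were lower here and 3 higher. Their median was -0.26, with a median signal ratio of 0.702. Most of the 33 are also counted in the lists above, so this list is not independent of those. It was also chosen with earlier results of these data known. HCC arrays lay wholly below NT for 16 of the 33, against 13.6% of all miRNAs. An unadjusted p was under 0.05 for 11, against 6.05% of all miRNAs. Under median scaling the median was -0.11, and leaving out each array gave -0.26 to -0.21. Smaller lists moved more: without NT 1 the median was -0.19 for let-7, -0.10 for miR-30, -0.23 for miR-26 and miR-101, -0.27 for the mesenchymal list and 0.0075 for the miR-17-92 clusters. Without NT 2 it was -0.35 for miR-30, -0.57 for miR-26 and miR-101 and -0.33 for the liver-enriched list, and without HCC 1 it was -0.19 for let-7 and for the endothelial pair; without HCC 2-2 it was -0.34 for miR-30 and 0.055 for the miR-17-92 clusters. The matching list of 29 reported as raised had 19 higher and 10 lower, a median of 0.03, and 4 wholly above NT against a background of 11.2%. For scale, the 50 brightest of the 463 miRNAs had 31 lower and 19 higher, 12 wholly below NT and a median of -0.01. The other clusters fixed for description stayed near 0. In the imprinted Dlk1-Dio3 cluster, 15 of 54 spots were tested, with 11 higher, 4 lower and a median of 0.03. In the Sfmbt2 intron cluster, 26 of 72 spots were tested, with 7 higher, 19 lower and a median of -0.01. For the miR-23, miR-27 and miR-24 clusters the median of 5 was 0.00, and miR-23a stood at -0.02 ± 0.223. For the 5 miRNAs of glucose and lipid metabolism it was 0.06, with 3 higher and 2 lower.

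Over the 273 miRNAs above detection on all 5 arrays, tumours spread about as widely as the NT pair. The median absolute log2 difference was 0.105 between NT 1 and NT 2, and 0.101, 0.122 and 0.083 between the pairs of HCC arrays. Across the groups it was 0.127, 0.136 and 0.138 from NT 1 to HCC 1, 2-1 and 2-2. From NT 2 to the same tumours it was 0.111, 0.099 and 0.096, so NT 2 lay no further from HCC 2-1 and 2-2 than from NT 1. The miRNAs named next were chosen for their range over the tumours, so their values are a description. miR-96 gave 10.9, 34.2 and 3.49 on HCC 1, 2-1 and 2-2, and miR-182, 3544 bases away on the minus strand of chromosome 6, gave 7.98, 43.6 and 7.18. HCC 2-1 stood above every other array for both, as NT gave 5.35 and 8.89 for miR-96 and 8.43 and 11.9 for miR-182. The third member of that cluster, miR-183, was above the detection level on only 2 of the 5 arrays. Without HCC 2-1, the differences from NT went from 0.17 to -0.0048 for miR-96 and from 0.16 to -0.06 for miR-182. miR-203, of squamous and other epithelium, gave 12.8, 5.01 and 40.4 on the same tumours and 43.9 and 25 in NT, so that HCC 2-2 alone reached the NT level. HCC 2-2 was likewise the tumour that kept miR-31, and it had the highest miR-210, a target of hypoxia-inducible factor, at 85.3 against 49.2 and 40.5 on the other tumours and 42.4 and 43.1 in NT. miR-3470b was highest on HCC 1, at 22.4 against 6.05 and 4.97.

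**Figure D5:**
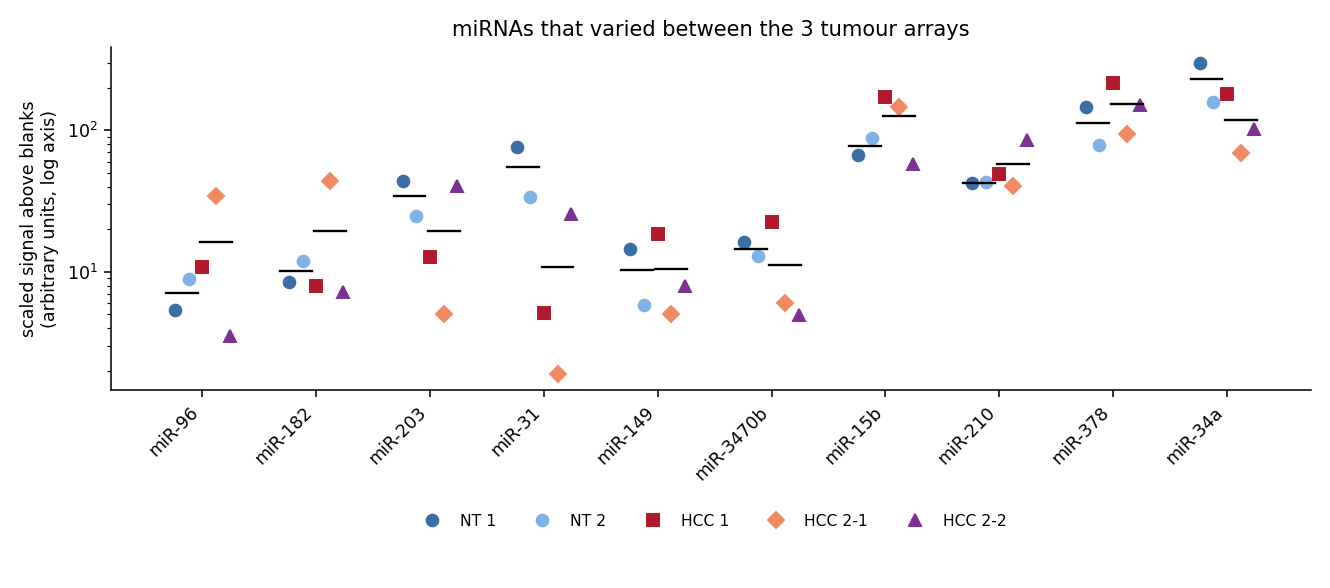
Scaled signal above blanks (vertical, log axis) of 10 miRNAs on each array, symbols and bars as for the other plot of signals. HCC 2-1 stands alone for miR-96 (34.2) and miR-182 (43.6), HCC 2-2 for miR-210 (85.3), and miR-203 and miR-31 on HCC 2-2 lie nearer to NT than on the other tumours.

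Presence in 1 group alone was rare and limited to dim miRNAs. Above the detection level on all 3 HCC arrays and on no NT array were 3 of 463 miRNAs (0.648%): miR-331-3p, miR-3093-5p and miR-5114. The reverse held for 10 (2.16%), among them miR-598, miR-1843b-5p, miR-3471, miR-3102 and miR-721. These counts cannot be set against each other, as the first needs 3 arrays above the level and the second only 2. miR-331-3p was the brightest of the 3, with 11.8, 5.01 and 5.70 on HCC 1, 2-1 and 2-2 and -0.82 and 0.83 on the NT arrays. miR-598 had 6.89 and 3.85 in NT and lay below the blank mean on each HCC array. All of these signals lie close to the detection level, and the array number limits the precision with which such differences can be placed.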

How the data were processed

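Per the labels' protocols, total RNA was extracted with a Qiagen kit and labelled with the dye Hy5. Per the file headers, it was hybridised in 1 colour to a mouse miRNA chip and scanned at 635 nm. The deposited scanner files hold the median pixel intensity of each spot, not normalised by the authors. A second deposited table, of the authors' own processed intensities, served as an alternative for 368 miRNAs. Groups came from the sample titles.

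For the main test, intensities of all spots, blank spots included, were background-corrected with normexp (offset 50) and taken to log2. The usable mouse spots were then quantile-normalised. HCC was compared with NT over 5 arrays with limma 3.58.1 in R 4.3.3 (lmFit and eBayes, 3 residual and 1.52 prior degrees of freedom, Benjamini-Hochberg adjustment over 463 miRNAs). Shown signals are intensities minus the mean of the 1818 blank spots, scaled to a median of 30.0 over the 273 miRNAs above detection on all 5 arrays. One of 1096 mouse spots was left out because the scanner did not mark it OK on HCC 1. Probes that name several miRNAs, 12 in all, were kept whole.

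The miRNAs and lists were chosen with earlier results of these data known. Named miRNAs are the 10 with the smallest p in each direction, up to 4 bright members of each list, a set of liver and cancer miRNAs, the 5 most variable among tumours, and up to 5 per direction found in 1 group alone; members of the miR-23, Dlk1-Dio3, Sfmbt2, metabolic and muscle, nerve and pancreas lists are given by counts. Array names were matched by hand to current RefSeq names. Alternatives covered normalisation, filters, prior, chip, pairing and leaving out each array. The test was also tried on simulated arrays, with levels and spreads taken from these data.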

Additional observations from a re-analysis of the deposited data

Results flagged for a closer look

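The chip also carries 39 probes for viral miRNAs, which no comparison above uses and which give a level for signal without a mouse target. Against 8 of them above the detection level on the normal liver array, the count was 12 on NT 1, 15 on NT 2, 11 on HCC 1, 9 on HCC 2-1 and 14 on HCC 2-2. On 2 or more of the 5 arrays 14 viral probes (35.9%) were above the level, against 42.3% of the mouse probes. Of those 14, HCC lay wholly above NT for 2 and wholly below for 1 on the scaled signal, while for the 463 mouse miRNAs this held for 65 and 53 (14.04% and 11.4%). Of the 463 miRNAs, 356 (76.9%) had a mean scaled signal under 50.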

How the results depend on the processing

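The count past an adjusted p of 0.05 was 0 in the main fit and in 15 of 18 alternatives. It was 1 with blank-subtracted, scaled signals (miR-195, adjusted p = 0.00950), 1 with no filter on low signals (miR-145, 0.0461) and 2 with a trended, robust prior (miR-145 and miR-711, both 0.0468). Leaving out each array in turn gave 0 each time. The replicate block gave 0 past the threshold. Deviations of same-numbered arrays from their group means correlated at 0.16, 0.03 and 0.15. With only 2 NT arrays, differently numbered arrays take the same values with the opposite sign. These correlations therefore cannot decide whether the numbers pair samples, and the main fit used no pairing. The adjusted p over all alternatives ran from 0.0461 to 0.347 for miR-145, from 0.00950 to 0.554 for miR-195 and from 0.0468 to 0.555 for miR-711, with no change of direction; the same direction was kept throughout by miR-199a-3p, let-7c, miR-26a, miR-142-5p, miR-149* and miR-1247*. The chip block leaves 1 residual degree of freedom.

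The following differences changed sign, all from results that had not passed the threshold; the cause was not tested. With blank-subtracted, scaled signals, it was -0.037 for miR-149. With median scaling, they were 0.021 for let-7b, 0.072 for miR-21, 0.16 for miR-192, 0.055 for miR-194, 0.21 for miR-22, 0.31 for miR-23a, 0.12 for miR-19b, 0.045 for let-7a, 0.070 for let-7f, 0.036 for let-7d, 0.042 for miR-16, 0.16 for miR-15a, 0.074 for miR-30c, 0.041 for miR-30a, 0.19 for miR-29b, 0.0066 for miR-152 and 0.25 for miR-451. With cyclic loess, they were 0.038 for miR-22, 0.14 for miR-23a, 0.021 for miR-29b and 0.071 for miR-451. With the authors' processed values, they were -0.016 for miR-322 and -0.39 for miR-149. With chip as a fixed block, they were 0.10 for miR-192, 0.34 for miR-22, 0.11 for miR-23a, 0.16 for miR-34a, -0.21 for miR-17, -0.46 for miR-20a, -0.013 for miR-20b, -0.29 for miR-322, 0.049 for miR-101b, 0.092 for miR-451, -0.039 for miR-222, -0.14 for miR-182 and 0.17 for miR-3470b. With chip as a random block, they were 0.00072 for miR-144 and -0.017 for miR-149. With the replicate block, they were 0.044 for miR-22 and -0.021 for miR-20a. With HCC 2-1 and 2-2 averaged, they were 0.022 for miR-22, 0.032 for miR-23a and -0.027 for miR-20a. Leaving out each array in turn, the difference ran from -0.29 to 0.13 for miR-192, -0.23 to 0.24 for miR-22, -0.16 to 0.25 for miR-20a, -0.15 to 0.031 for miR-15a, -0.14 to 0.043 for miR-29b, -0.55 to 0.19 for miR-101b, -0.13 to 0.21 for miR-23a, -0.061 to 0.49 for miR-29c, -0.12 to 0.039 for miR-155, -0.062 to 0.14 for miR-149, -0.24 to 0.023 for miR-19b, -0.060 to 0.011 for miR-144, -0.16 to 0.049 for miR-451, -0.0048 to 0.28 for miR-96, -0.062 to 0.27 for miR-182 and -0.067 to 0.37 for miR-322.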
